A study of Mus musculus with 2 samples.

Results

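The PRAME-like clusters of mouse chromosomes 4 and 5 were described in messenger RNA of mouse embryonic stem (ES) cells sorted by a fluorescent reporter. The members are all intervals with a read depth above 0 in either of 2 coverage tracks, within chr5:94060001-96240000 and chr4:143000001-144400000 of the mouse build mm9. The 2C::tomato+ track held 21553 such intervals in both clusters together, of 13301789 in the whole genome, and the 2C::tomato- track held 7023 of 11638468. On chromosome 5 there were 10454 in the 2C::tomato+ track and 287 in the 2C::tomato- track. On chromosome 4 there were 11099 and 6736. Joined over both tracks, the intervals formed 1092 covered blocks on chromosome 5 and 458 on chromosome 4, of 801091 in the genome. The clusters were chosen because earlier results of these libraries showed repeated coverage and a high ratio there, so the ratios and levels below are descriptions, with no test.

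The 2C::tomato+ library came from ES cells with an active reporter, and the 2C::tomato- library came from cells of the same culture type without it. Both populations had a mixed strain background, were Kdm1a FL/FL with CreERT, and grew on gelatin with hygromycin before they were separated by flow cytometry. Kdm1a encodes the histone demethylase LSD1, and its floxed alleles and the inducible Cre are shared by both populations. Each population has 1 library, so no difference has a replicate check, and with sorted bulk cells fewer cells of a type and less RNA per cell cannot be told apart.

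PRAME-like proteins are built of leucine-rich repeats and belong to a family that has expanded in tandem in the mouse genome. Many of its genes are known from oocytes, germ cells and the early embryo. In the 2C::tomato reporter, a red fluorescent protein is placed under the control of MuERV-L, an endogenous retrovirus active in the 2-cell embryo.

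Sequences of annotated genes show how alike the copies are, and why a 72-base read can belong to several of them. Gene models are for GRCm38, another build than that of the tracks, so no gene was placed on the tracks by coordinates. The annotation has 18 Pramel genes in the chromosome 5 cluster and 21 in the chromosome 4 cluster, with 4 more elsewhere on chromosome 4 left out. The first 72 coding bases of 5 genes that return in the results below are printed from GENCODE M21 transcripts, 5′ to 3′, with the start codon in capitals.
Pramel12 (chromosome 4): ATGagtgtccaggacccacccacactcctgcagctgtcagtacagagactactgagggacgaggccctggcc
Pramel13 (chromosome 4): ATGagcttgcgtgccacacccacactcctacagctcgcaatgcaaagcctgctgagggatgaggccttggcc
Pramel36 (chromosome 5): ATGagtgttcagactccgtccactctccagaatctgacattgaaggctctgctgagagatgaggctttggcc
Pramel43 (chromosome 5): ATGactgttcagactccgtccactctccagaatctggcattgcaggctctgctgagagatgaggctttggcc
Pramel46 (chromosome 5): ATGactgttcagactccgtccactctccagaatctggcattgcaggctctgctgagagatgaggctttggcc

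Over their whole coding sequences of 1443 bases, Pramel43 and Pramel46 differed at 5 bases, and Pramel36 and Pramel49 were identical. Pramel12 and Pramel13, of chromosome 4, were 63.8% identical to each other. Pramel12 was 69.9% identical to Pramel36. The coding stretch shared by most genes of each chromosome is printed next, since reads from it cannot be given to 1 gene. On chromosome 4 it was found in Pramel5, Pramel11, Pramel21 and Pramel24, and its capitals mark the start codon. On chromosome 5 it was found in Pramel36, Pramel37, Pramel39, Pramel43, Pramel46, Pramel49 and Pramel50, inside the coding sequence.
Shared by 4 of 21 genes of chromosome 4: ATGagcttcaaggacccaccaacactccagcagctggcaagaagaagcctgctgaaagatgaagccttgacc
Shared by 7 of 18 genes of chromosome 5: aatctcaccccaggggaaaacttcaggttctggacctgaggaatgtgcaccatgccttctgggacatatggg

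In the annotated transcripts of chromosome 5, a median of 78.7% of a gene's 72-base words also occurred in another gene (range 17.9% to 100%). On chromosome 4 the median was 15.6% (range 0% to 65.7%). No word was shared between the chromosomes.

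Coverage of the chromosome 5 cluster came mostly from 2C::tomato+ cells, and that of the chromosome 4 cluster was near equal in total. The 2C::tomato+ library held 8705 alignments in the 2180 kb of the chromosome 5 cluster and the 2C::tomato- library held 369. Scaled to the 37059813 alignments of the 2C::tomato+ library and the 33833215 of the 2C::tomato- library, these are 235 and 10.9 per 1000000, a ratio of 21.5 (95% counting interval 19.4 to 24.0). In the 1400 kb of the chromosome 4 cluster there were 12191 alignments in 2C::tomato+ cells and 8966 in 2C::tomato- cells. That is 329 and 265 per 1000000, a ratio of 1.24 (1.21 to 1.28). Intervals throughout are exact conditional binomial (Clopper-Pearson) intervals and cover counting error only. Reads without molecular identifiers are not independent, and reads that match several copies are listed at more than 1 of them, so the intervals are too narrow. With each alignment weighted by 1 over its number of places the ratio of chromosome 5 was 12.1, and without repeated stretches it was 10.8. Places could be counted only where coverage was dense. Of the 3790 2C::tomato+ and 319 2C::tomato- alignments left without repeated stretches, 3748 and 318 lay where it was too thin. The 10.8 is thus not a ratio of sequence found at 1 place.

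On chromosome 5, 5.04% of the bases were covered in 2C::tomato+ cells and 0.852% in 2C::tomato- cells. On chromosome 4 the shares were 4.52% in 2C::tomato+ cells and 2.17% in 2C::tomato- cells. Over the genome they were 3.22% in 2C::tomato+ cells and 2.66% in 2C::tomato- cells. The highest depth over a base of the chromosome 5 cluster was 58 alignments in 2C::tomato+ cells and 3 in 2C::tomato- cells. On chromosome 4 it was 198 in 2C::tomato+ cells and 194 in 2C::tomato- cells, which is 5.34 and 5.73 per 1000000.

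The boundaries of the clusters were unlike each other. The first and the last 100 kb inside the chromosome 5 cluster held 239 and 730 alignments in 2C::tomato+ cells, against 8 and 11 in 2C::tomato- cells. Just outside it, the 100 kb before the cluster held 22 alignments in 2C::tomato+ cells and 10 in 2C::tomato- cells, and the 100 kb after it held 5635 and 4878, a ratio of 1.05. Inside the chromosome 4 cluster, the first and the last 100 kb held 1715 and 70 alignments in 2C::tomato+ cells, against 1471 and 63 in 2C::tomato- cells. The 100 kb before it held 7752 in 2C::tomato+ cells and 7607 in 2C::tomato- cells, and the 100 kb after it held 31 and 12.

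**Figure D1:**
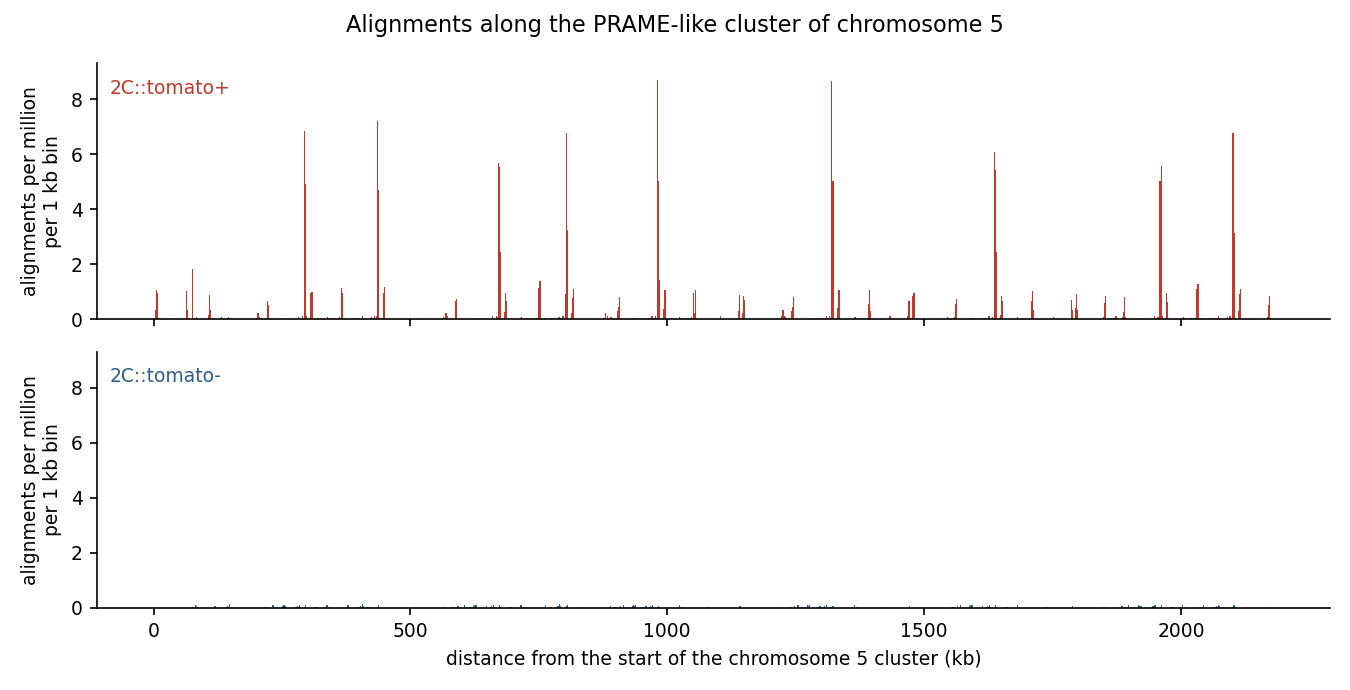
Alignments per 1000000 of each library, in 1 kb bins along the chromosome 5 cluster, in 2C::tomato+ cells (upper panel) and 2C::tomato- cells (lower panel) on the same vertical axis; bars are drawn wider than a bin so that they can be seen. In the upper panel 9 tall peaks with low peaks between them run along the whole cluster, and the lower panel stays near 0.

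Most blocks were thin. Of the 1092 blocks on chromosome 5, 598 were a single alignment, 850 had alignments in 2C::tomato+ cells only, 193 in 2C::tomato- cells only and 49 in both. The 121 blocks with at least 10 alignments held 84.1% of the alignments of 2C::tomato+ cells and 14.6% of those of 2C::tomato- cells. The minimum is over both libraries, and on chromosome 5 it was reached mainly through 2C::tomato+ depth, so nothing is read from these shares. On chromosome 4, 278 of 458 blocks had alignments in 2C::tomato+ cells only, 59 in 2C::tomato- cells only and 121 in both. Its 99 dense blocks held 96.1% of the 2C::tomato+ and 98.1% of the 2C::tomato- alignments. The median dense block was 297 bases wide on chromosome 5 and 298 on chromosome 4.

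Blocks less than 5 kb apart were joined into loci, and loci with at least 20 alignments were compared. Chromosome 5 had 89 loci, of which 35 were compared and 30 were at least 4-fold higher in 2C::tomato+ cells with an interval that excludes 1. Over the genome 2.37% of 21386 loci passed that rule. The minimum is over both libraries, and on chromosome 5 it was reached mainly through 2C::tomato+ depth. The clusters were also chosen on these ratios, so nothing is read from the difference. The 30 loci held 8491 alignments in 2C::tomato+ cells and 182 in 2C::tomato- cells, which is 97.5% and 49.3% of those in the cluster. At a 2-fold limit the same number passed, against 5.25% over the genome. In 6 of the 30 the 2C::tomato- library had no alignment. The other 5 compared loci held 51 in 2C::tomato+ cells and 68 in 2C::tomato- cells, and the 54 loci under the minimum held 163 and 119. With blocks joined over 2 kb in place of 5 kb, 46 loci were at least 4-fold higher, and 11 on chromosome 4.

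Chromosome 4 had 71 loci, of which 27 were compared and 7 were at least 4-fold higher in 2C::tomato+ cells. These 7 held 2387 alignments in 2C::tomato+ cells and 17 in 2C::tomato- cells, a ratio of 128 (79.9 to 220). They made up 19.6% of the 2C::tomato+ and 0.190% of the 2C::tomato- alignments of the cluster. The other 20 compared loci held 9722 in 2C::tomato+ cells and 8898 in 2C::tomato- cells, a ratio of 0.997 (0.969 to 1.03). Ratios of these 20 ran from 0.766 to 2.28. Some of their intervals excluded 1, as at 143449197, with a ratio of 1.98 (1.35 to 2.94), and at 144087880, with 0.766 (0.668 to 0.879). The loci were split by their own ratio, and the 7 reached the minimum through 2C::tomato+ depth. The 2 pooled ratios therefore only describe the split. By it, the near-equal total joined a few loci seen almost only in 2C::tomato+ cells with many within 2-fold or with an interval that includes 1. None of the loci compared in either cluster was at least 2-fold lower in 2C::tomato+ cells with an interval that excludes 1. Over the genome 0.94% were, and with so few loci compared nothing is read from this. Some loci under the minimum had intervals below 1. Those at chromosome 5 positions 94311603 and 95977436 each had 4 alignments in 2C::tomato+ cells and 13 in 2C::tomato- cells, a ratio of 0.281 (0.0667 to 0.909). The locus at chromosome 4 position 143964021 had 0 and 6, with an upper bound of 0.775.

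The same alignments were also counted in 10 kb windows, which is no second measurement. On chromosome 5, 51 of the 53 windows with at least 20 alignments were at least 4-fold higher in 2C::tomato+ cells, and 60 of all 218 windows had no alignment in either library. On chromosome 4, 13 of 35 were higher and 40 of 140 had no alignment. Over the genome 1.69% of 48349 windows passed. At a 2-fold limit the counts of the clusters were again 51 and 13, against 4.62% over the genome. No compared window was at least 2-fold lower, against 0.827%. The minimum is over both libraries, and on chromosome 5 it was reached mainly through 2C::tomato+ depth. With the clusters also chosen on these ratios, nothing is read from the differences from the genome.

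**Figure D2:**
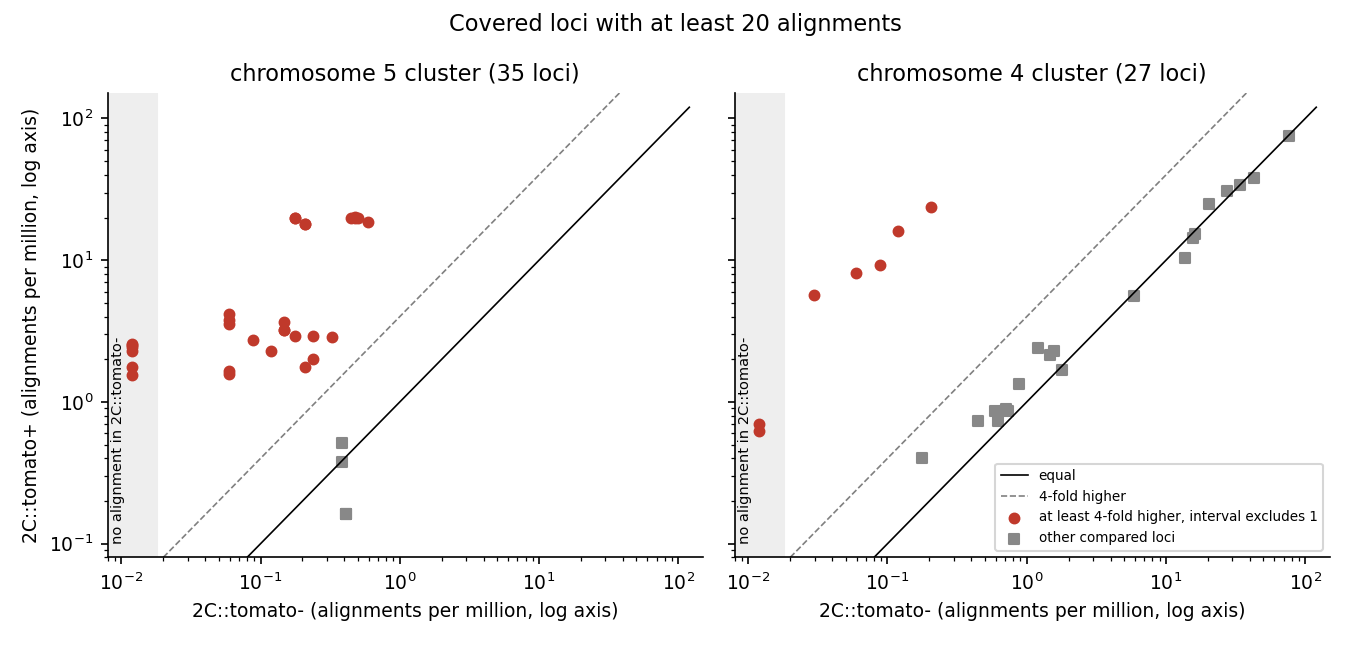
Alignments per 1000000 of each library in each compared locus in 2C::tomato+ cells (vertical log axis) against 2C::tomato- cells (horizontal log axis), for the 35 loci of chromosome 5 and the 27 of chromosome 4. Nearly all loci of chromosome 5 lie far above the line of equal levels, while those of chromosome 4 split into 7 far above it and 20 along it; loci with no 2C::tomato- alignment are set at the left in the grey band.

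The strongest loci of chromosome 5 shared a pattern of 3 covered blocks in a row. A search was made, after the widths had been seen, for a short block of 280 to 340 bases, a middle one of 550 to 700 and a long one over 700, each with at least 10 alignments. It found 9 patterns in the chromosome 5 cluster, 8 in the chromosome 4 cluster and 117 elsewhere. All 9 patterns of chromosome 5 were at least 4-fold higher in 2C::tomato+ cells, as were 6 of the 8 of chromosome 4 and 7 of the 117 elsewhere, of which 6 lay on unplaced or unlocalised sequence. The minimum is over both libraries. In those 9 and those 6 patterns it was reached through 2C::tomato+ depth, and the clusters were chosen on such ratios, so nothing is read from these counts.

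The 9 patterns of chromosome 5 were copies of each other to within a few bases. Their short blocks were 317 to 319 bases wide, their middle blocks 625 to 629, their long blocks 863 to 870, and the whole patterns spanned 3116 to 3121 bases. In every one the long block came first along the chromosome. Each held 528 to 616 alignments in 2C::tomato+ cells against 5 or 6 in 2C::tomato- cells, and the ratios ran from 80.3 to 110. Levels per length were alike in the 3 blocks. In 2C::tomato+ cells there were 26.0 to 38.2 alignments per 100 possible start positions in the short block, 33.9 to 35.9 in the middle one and 34.5 to 40.4 in the long one.

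These widths were set beside the exons of all annotated genes, by length alone. A gene was matched if 3 exons in a row had the short width, the long width and the whole span of a pattern, each within 15 bases, a tolerance chosen after the widths were seen. Each of the 9 patterns of chromosome 5 matched Pramel36, Pramel39, Pramel43, Pramel46 and Pramel49, and no gene outside the family. In these 5 genes the exons are 314, 591 and 869 bases long. They lie on the minus strand of GRCm38, where a long last exon comes first along the chromosome, as the long block does in mm9. Middle blocks were wider than the middle exon. Strand is not kept in the tracks, and a match of lengths does not say which gene a locus holds.

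The distances between copies also recurred in the annotation. The promoters of 2 of the matched genes are printed from RefSeq (GRCm38.p6), 250 bases before to 50 after the gene's start, to show how alike the copies are upstream. They were the closest pair among the promoters of the matched genes, and the capitals mark the motif TATAAA.
Pramel46, chr5:95272706-95273005, minus strand: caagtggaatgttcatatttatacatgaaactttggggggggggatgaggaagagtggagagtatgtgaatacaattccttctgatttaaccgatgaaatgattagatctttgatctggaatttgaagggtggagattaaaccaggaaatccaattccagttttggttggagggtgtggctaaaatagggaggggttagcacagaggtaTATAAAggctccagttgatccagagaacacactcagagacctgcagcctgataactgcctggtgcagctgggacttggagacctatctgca
Pramel49, chr5:95594813-95595112, minus strand: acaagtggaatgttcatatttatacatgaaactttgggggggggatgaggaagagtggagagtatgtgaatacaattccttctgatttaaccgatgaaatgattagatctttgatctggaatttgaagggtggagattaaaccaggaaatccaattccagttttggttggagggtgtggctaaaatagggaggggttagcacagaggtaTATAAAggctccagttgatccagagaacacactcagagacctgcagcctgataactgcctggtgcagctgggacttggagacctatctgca

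The 2 promoters had no mismatch and 2 gaps when aligned. They start 322107 bases apart in GRCm38.p6, and the commonest distance between copies in the mm9 tracks was 322106 bases. Pramel39 and Pramel43 start 309544 bases apart, beside a distance of 309550 in the tracks. Pramel43 and Pramel46 start 656415 apart, beside 656418. Promoters of 4 matched genes were at hand, 90.8% to 99.3% identical to each other, and all 4 held TATAAA as written, 28 to 41 bases before the start. Counting both strands, 7 of the 12 promoters at hand for chromosome 5 held it, 5 of the 19 for chromosome 4, and 13.6% of all 32851. A match of letters is no evidence of use. Among all pairs of the chromosome 5 promoters the median identity was 51.8%, and among those of chromosome 4 it was 51.3%. For 8 of the 12 on chromosome 5 another promoter was at least 95% identical, and for 2 of the 19 on chromosome 4.

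**Figure D3:**
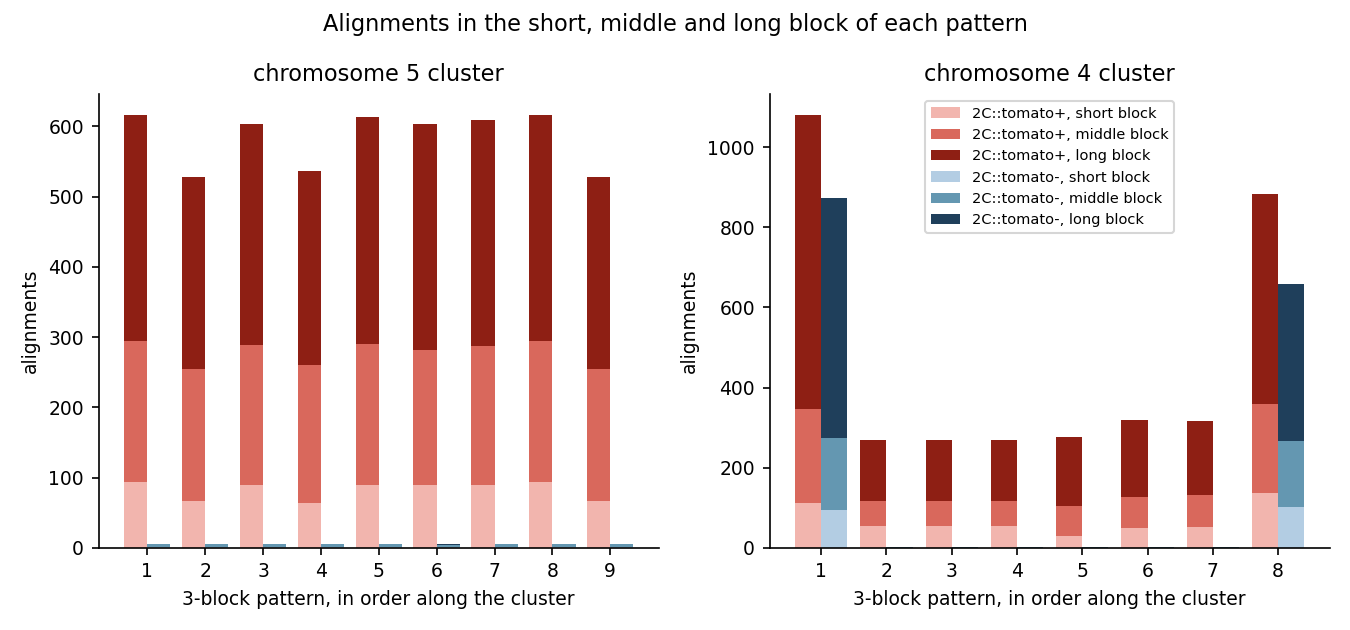
Alignments in the short, middle and long block of each 3-block pattern, in order along each cluster, with 2C::tomato+ cells left of 2C::tomato- cells. The 9 patterns of chromosome 5 hold 528 to 616 alignments in 2C::tomato+ cells and nearly none in 2C::tomato- cells; on chromosome 4 the first and the last pattern are high in both and the other 6 are not.

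The 8 patterns of chromosome 4 fell into a group high in both populations and one seen almost only in 2C::tomato+ cells. The first, at chr4:143006543-143010982, had 1080 alignments in 2C::tomato+ cells and 872 in 2C::tomato- cells, a ratio of 1.13 (1.03 to 1.24). Its blocks were 315, 601 and 2249 bases wide with the short one first, and it matched Pramel12 alone, whose exons are 313, 588 and 2254 bases long, on the plus strand. The last, at chr4:143981583-143985910, had 884 in 2C::tomato+ cells and 659 in 2C::tomato- cells, a ratio of 1.22 (1.11 to 1.36). Its blocks were 330, 594 and 1440 bases wide with the long one first, and it matched Pramel13 alone, whose exons are 323, 585 and 1444 bases long, on the minus strand.

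The other 6 patterns of chromosome 4 matched no annotated gene within 15 bases. Of these, 3 were equal in every width and count, with blocks of 313, 584 and 934 bases and 269 alignments in 2C::tomato+ cells against 2 in 2C::tomato- cells. They began at 143104916, 143129554 and 143145319. The pattern at 143160887 held 276 and 2, that at 143538171 held 320 and 2, and that at 143951505 held 317 and 3, in 2C::tomato+ and 2C::tomato- cells. Their middle blocks were 684 bases wide each. The ratios of the 6 ran from 96.5 to 146. The equal copies list the same reads several times, so they are not separate measurements.

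A check of the label rests on such lengths, since no mm9 annotation was at hand. Exons of 280 to 340, 550 to 700 and over 700 bases in a row were annotated in 14 of the 18 Pramel genes of chromosome 5 and 18 of the 21 of chromosome 4, against 43 of 55411 other genes. An exon of 591 bases was annotated in all 18 genes of chromosome 5 and in 119 of the other genes.

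**Figure D4:**
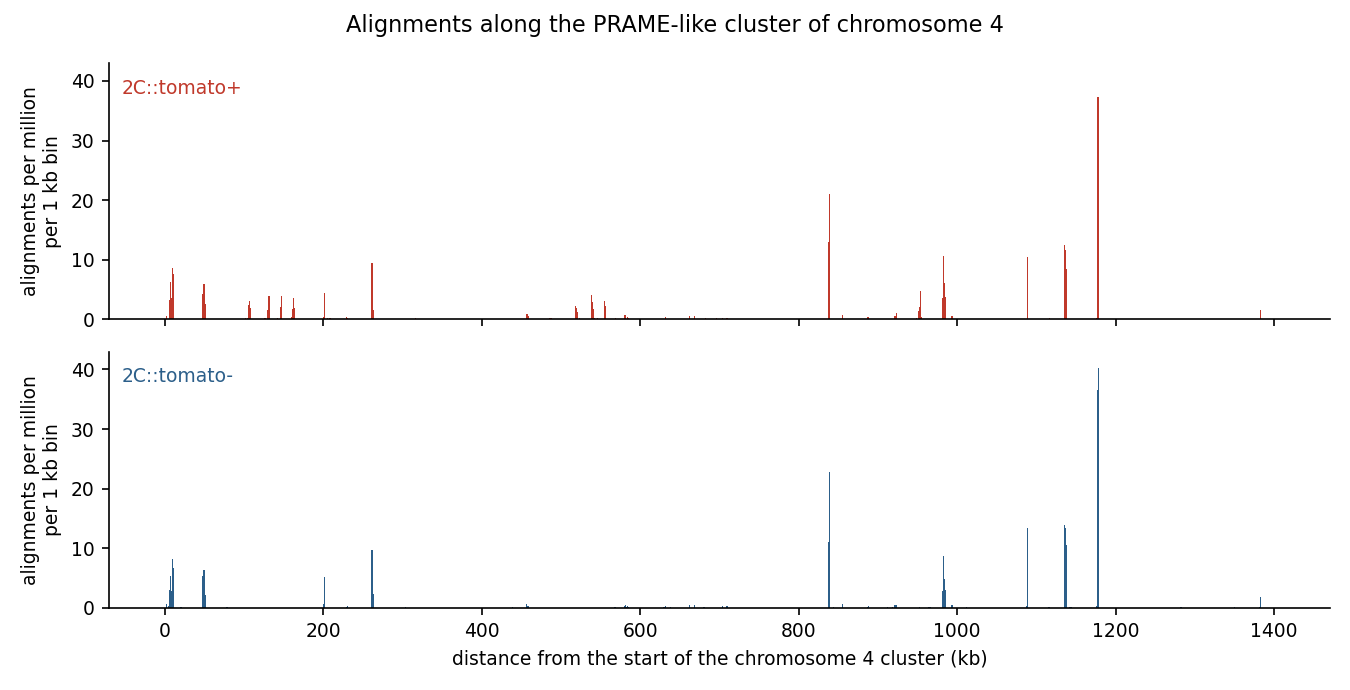
Alignments per 1000000 of each library, in 1 kb bins along the chromosome 4 cluster, in 2C::tomato+ cells (upper panel) and 2C::tomato- cells (lower panel) on the same vertical axis; bars are drawn wider than a bin. The tallest peaks stand in both panels, and a group of lower peaks near the start, near the middle and before the 1000 kb mark stands in the upper panel only.

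Loci that shared at least 25% of their alignments at the same relative positions were grouped into families. On chromosome 5 the 35 compared loci formed 6 families of 2 to 9 loci, with 3 loci left single. The first family, here A, held the 9 loci with a 3-block pattern. They had 668 to 743 alignments in 2C::tomato+ cells against 6 to 20 in 2C::tomato- cells, which is 174 against 3.25 alignments per 1000000 in sum, a ratio of 53.4 (44.2 to 65.1). Family A alone took up 73.9% of the 2C::tomato+ alignments of the cluster and 29.8% of its 2C::tomato- alignments. With alignments weighted by 1 over their number of places, a setting added after the data were seen, the shares were 47.7% and 20.3% and the ratio was 28.3. Alignments in coverage too thin to count places kept a weight of 1.

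The copies of family A list many of the same reads, so their like counts are not separate measurements. Their 2C::tomato- counts differed with the sequence joined around the pattern, which was 19.3 to 43.8 kb long, while the patterns themselves held 5 or 6 each. The locus with most alignments, chr5:95014844-95055811, had 743 in 2C::tomato+ cells and 16 in 2C::tomato- cells, a ratio of 42.4. Those at chr5:94704837-94746267, chr5:95670822-95712254 and chr5:95353844-95394825 had 735 to 737 against 15 to 17. At chr5:94349300-94368554 there were 734 against 6, a ratio of 112 (51.1 to 305), and at chr5:96015121-96034370 there were 733 against 6, a ratio of 112 (51.0 to 305). These had the highest lower bounds on chromosome 5. The locus at chr5:94833860-94877616 had 684 against 20, the lowest ratio of the family at 31.2. The last pair, chr5:94483835-94510001 and chr5:96149452-96175614, had 668 against 7 each.

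The remaining families of chromosome 5 held fewer alignments. Family B, of 8 loci, had 58 to 108 alignments in 2C::tomato+ cells against 2 to 11 in 2C::tomato- cells, a ratio of 14.7 (10.8 to 20.5) in sum. Family C, of 7 loci, had 85 to 135 against 0 to 5, a ratio of 45.0 (27.1 to 80.8), and its locus nearest the cluster start was inverted relative to the others. Family E, of 3 loci, had 131 to 154 against 2 each, a ratio of 64.8 (29.5 to 178). All 18 of these loci were at least 4-fold higher in 2C::tomato+ cells. Weighted by places, the 2C::tomato+ level was 182 to 279 alignments at the loci of family A. At the loci of B, C and E coverage was too thin to count places, so weighting left their counts unchanged. The weighted levels of B, C and E are thus not on the same scale as that of A.

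Families D and F were not higher in 2C::tomato+ cells. The 3 loci of family D had 6 alignments in 2C::tomato+ cells and 14 in 2C::tomato- cells each, a ratio of 0.391 (0.212 to 0.695) in sum, over loci whose equal counts are not separate measurements. The 2 loci of family F had 14 and 19 alignments in 2C::tomato+ cells and 13 each in 2C::tomato- cells, a ratio of 1.16 (0.672 to 2.02). Among named loci of chromosome 5, the lowest bounds nearest to 1 belonged to chr5:94938227-94969694 with 106 against 11, chr5:94134922-94145900 with 75 against 8, and chr5:95941506-95958701 with 65 against 7. Their ratios were 8.80, 8.56 and 8.48.

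Read along chromosome 5, the families of the compared loci stood in a recurring order. Loci under the minimum were given no family and are left out of it. From the locus of family A at 95014844 on, the order was A, C, E, B, D, and it came again from 95353844 on. The next round, from 95670822 on, ran A, C, E, B, B. Stretches near each end of the array, from 94349300 and from 96015121, ran A, C, F, A, B. Before the first of them lay 5 compared loci in the order C, 3 single loci, B. Between it and the long rounds, from 94704837, the order was A, C, A, B, D. Counted from the start of the 3-block pattern, family C began 65.3, 66.5 and 66.4 kb further on in the 3 long rounds, family E 157, 148 and 148 kb, and family B 241, 225 and 210 kb. The rounds were 339, 317 and 344 kb long from one family A locus to the next.

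Spacing was also measured from the start patterns themselves. Stretches of 64 bases with at least 20 starts were compared, in both orientations, and 882 of 958 repeated stretches of the chromosome 5 cluster recurred within it. A stretch was found at up to 9 places inside it and up to 15 in all. The commonest distances between neighbouring copies were 322106, 317413 and 339005 bases, followed by 309550 and 377741, and the median was 317 kb. The distances named lie between loci of family A, as the lengths of the rounds do, so they are no second measurement of the rounds. No neighbouring copies of such stretches were inverted. Distances of 1665.82 and 1665.63 kb separated the matching loci of the first and the last A, C, F, A, B round, so copies at the ends were alike over a long range.

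Copies of the chromosome 5 cluster were also found outside it. Of its repeated stretches, 94.8% recurred on unplaced sequence of mm9 and 55.4% on unlocalised sequence of chromosome 5. None of the repeated stretches of the chromosome 4 cluster occurred in the chromosome 5 cluster. On chromosome 4, 1920 stretches were repeated but only 121 of them within the cluster, at up to 7 places. Of all 1920, 43.4% recurred on chromosome 5 outside the cluster described here, 28.0% on chromosome 15 and 15% on chromosome 19, and most repeated stretches there had no second copy inside the cluster.

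**Figure D5:**
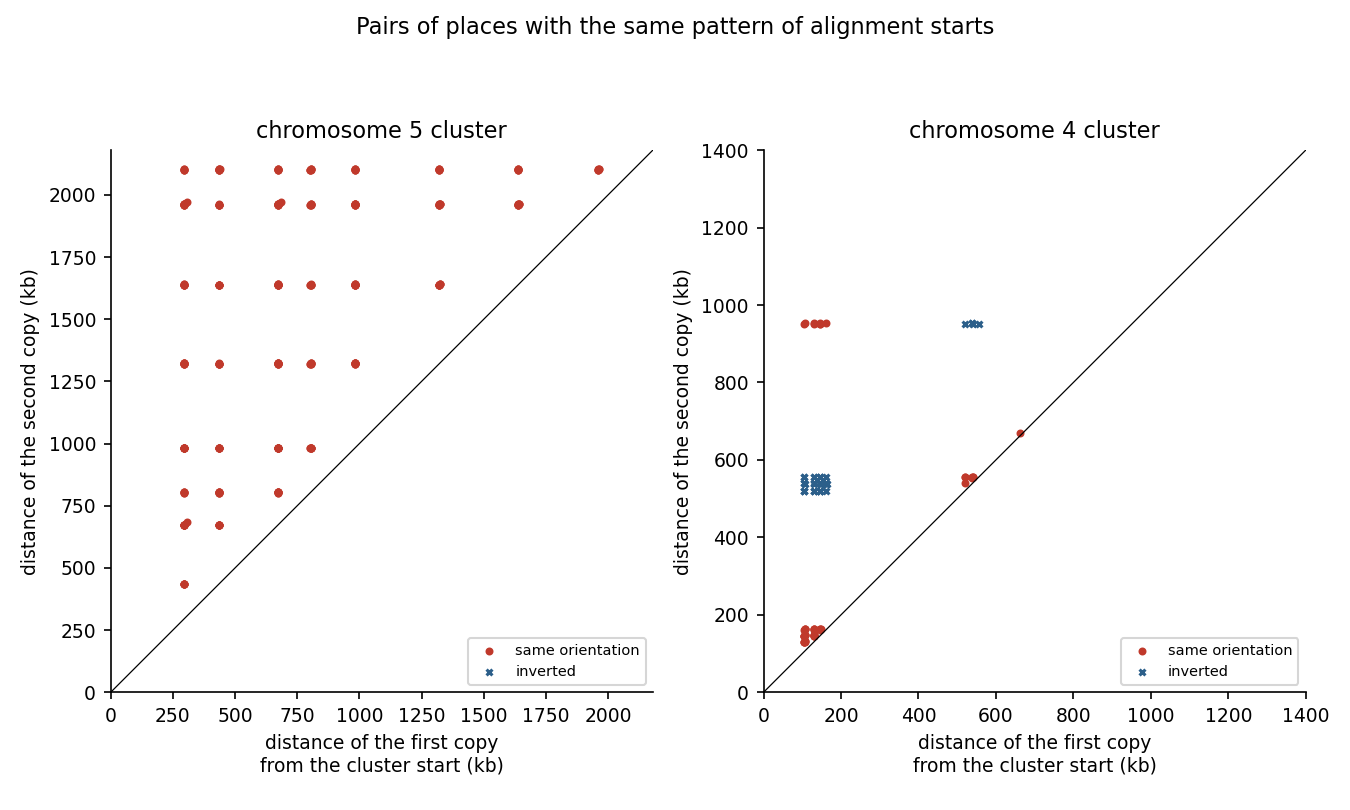
Each point is a pair of places in a cluster with the same pattern of alignment starts, with the distance of each place from the cluster start in kb on the axes, and inverted pairs as crosses. Chromosome 5 shows a grid of pairs in the same orientation along most of its length, and chromosome 4 shows a few groups, many of them inverted.

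Between neighbouring copies in the same orientation, spacing on chromosome 4 was mostly an order of size shorter. The commonest of these distances were 15765 and 24638 bases, then 15563. Another 89 pairs of neighbouring copies were inverted, and their distances are not among these. Inverted pairs of places also lay far apart, for example at 163 and 538.5 kb, and at 556.5 and 951.5 kb, from the start of the chromosome 4 cluster. The 5 loci of its largest family had 212 to 884 alignments in 2C::tomato+ cells against 1 to 7 in 2C::tomato- cells, 2338 against 17 in sum, a ratio of 126 (78.2 to 216). Its richest locus, chr4:143126077-143164165, held 3 of the patterns, with 884 in 2C::tomato+ cells and 7 in 2C::tomato- cells, a ratio of 115 (55.7 to 288). At chr4:143537263-143556837 there were 595 against 4, a ratio of 136 (52.8 to 500), and at chr4:143097125-143115699 there were 303 against 2, a ratio of 138 (38.0 to 1147). These 3 had the highest lower bounds on chromosome 4. The other 2 loci of the family, at 143517380 and 143945602, had 212 against 1 and 344 against 3.

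The remaining higher loci of chromosome 4, at 143313130 and 143478151, were inverted copies with 23 and 26 alignments in 2C::tomato+ cells and none in 2C::tomato- cells. With 3 alignments in place of 0 in each, the ratios were 7.0 and 7.91, and the lower bounds of the counting intervals were 5.25 and 5.99. Another inverted pair had 79 and 85 alignments in 2C::tomato+ cells against 50 and 53 in 2C::tomato- cells, a ratio of 1.45 (1.13 to 1.88) in sum. A further one had 32 each against 25 and 20, a ratio of 1.30 (0.873 to 1.95).

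Of the 8 loci of chromosome 4 with most alignments, 7 were within 2-fold, and the exception was chr4:143126077-143164165, given above. The richest, chr4:144176149-144183272, had 2772 alignments in 2C::tomato+ cells and 2608 in 2C::tomato- cells, or 74.8 and 77.1 per 1000000, a ratio of 0.970 (0.919 to 1.02). It alone held 22.7% of the 2C::tomato+ and 29.1% of the 2C::tomato- alignments of the cluster. At chr4:144135301-144151141 there were 1399 against 1446, a ratio of 0.883 (0.820 to 0.951), and at chr4:143837680-143838679 there were 1265 against 1149, a ratio of 1.01 (0.927 to 1.09). The loci around the patterns matched by Pramel12 and Pramel13, at 143000407 and 143980670, had 1136 against 923 and 925 against 688. The loci at 143047127 and 143261035 had 567 against 545 and 533 against 531. Among loci with at least 50 alignments, taking the bound of each interval nearest to 1, the lowest on chromosome 4 was that of chr4:144087880-144088869, with 387 in 2C::tomato+ cells and 461 in 2C::tomato- cells, a ratio of 0.766 (0.668 to 0.879). That locus, and those at 143837680 and 144176149, were at most 7.12 kb long and held no 3-block pattern. Those at 144135301, 143047127 and 143261035 held none either. Of the 7 rich loci within 2-fold, only those at 143000407 and 143980670 thus held a pattern. Whether the others hold PRAME-like genes was not tested.

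The ratios were also taken by the number of places at which a stretch was found. On chromosome 5, stretches found at 10 or more places held 4059 alignments in 2C::tomato+ cells and 32 in 2C::tomato- cells, a ratio of 116 (81.9 to 170). Those found at 3 to 9 places held 789 and 18, a ratio of 40.0 (25.2 to 67.9). Those at 1 place held 42 and 1, a ratio of 38.3 (6.52 to 1550), and those at 2 places 67 and 0. Alignments in thinly covered sequence, where no distinctive stretch could be defined, numbered 3748 in 2C::tomato+ cells and 318 in 2C::tomato- cells, a ratio of 10.8 (9.59 to 12.1), and made up 43.1% and 86.2% of those in the cluster. On chromosome 4, stretches at 1 place held 6546 and 5911, a ratio of 1.01 (0.976 to 1.05), and those at 2 places held 2823 and 2567, a ratio of 1.0 (0.951 to 1.06). Those at 3 to 9 places held 822 and 35, a ratio of 21.4 (15.3 to 31.0), and alignments in no distinctive stretch numbered 2000 and 453, a ratio of 4.03 (3.64 to 4.47). A distinctive stretch needed at least 20 starts over both libraries. On chromosome 5, and at 3 to 9 places on chromosome 4, this was reached mainly through 2C::tomato+ depth. Nothing is therefore read from the differences between these ratios. Whether listing at several places has a part in these ratios was not tested.

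Silent stretches, with depth 0 in both tracks over at least 10 kb, took up 46.1% of the chromosome 5 cluster and 55.2% of the chromosome 4 cluster, against 69.4% of the placed chromosomes. There were 44 on chromosome 5, with a median of 16.4 kb, and 35 on chromosome 4, with a median of 19.9 kb. In the 2C::tomato+ track alone they took up 55.8% of the chromosome 5 cluster, and in the 2C::tomato- track alone 74.6%. On chromosome 4 the shares were 61.8% in the 2C::tomato+ track and 84.1% in the 2C::tomato- track.

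The longest silent stretches reached 59.6 kb on chromosome 5, at chr5:94510002-94569613, and 64.2 kb on chromosome 4, at chr4:143773493-143837679. The next on chromosome 5 began at 95223760, 95553914, 94887295 and 94209659 and were 52.7, 51.4, 50.9 and 44.1 kb long. On chromosome 4 they began at 143352548, 143164166, 144052082 and 144215936 and were 42.0, 36.5, 35.8 and 32.7 kb long. Depth 0 can also mark sequence where no alignment could be listed, such as gaps of the assembly or sequence with too many copies, and its part in the silent stretches was not tested.

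On chromosome 5 the silent stretches recurred like the covered ones. Of its 44, 27 had another of the same length within 50 bases, against 4 of 35 on chromosome 4. A group of 6 was 10.5 kb long, one of 5 was 16.3 to 16.4 kb, and 3 were 33.1 kb. The comparison of lengths was chosen after they had been seen.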

How the data were processed

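Messenger RNA of the sorted populations was sequenced, with 1 library each. The authors deposited 1 coverage track per library, whose signal is the number of aligned reads over each base, not scaled to depth and without strand. The submitters' processing notes name Bowtie and mm9. Its version and settings are not given there. The coverage was decoded exactly into ungapped alignments of 72 bases, so reads across splice junctions are not among them. Equal start patterns recur, at up to 20 places, so reads that match several places are listed at more than 1 of them. Whether they are listed at all of them is not known, and weights use the places found. Alignments in no distinctive stretch kept a weight of 1 and were not counted as repeated.

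Ratios are of each library's share of all its alignments. Against a count of 0, 3 counts per locus stand in for it. Blocks are runs of depth above 0, and the 3-block search allowed at most 2 kb between blocks. Repeated stretches were found from equal start counts in both libraries, over 64 bases with at least 8 positions holding starts. The named loci of each cluster are the 8 with most alignments, the 3 with the highest and the 3 with the lowest interval bound nearest to 1 among those with at least 50 alignments, and the 5 longest silent stretches. A rule for protein sequences could not be used, and coding sequences and promoters took its place. The members, lists and rules were chosen with earlier results of these data known. Decoding, search and calls were tested on simulated data. Alternatives changed the counting, scaling, minimum, joining distance and window size. Python 3.11.15, NumPy 2.4.6, SciPy 1.17.1, pandas 2.3.3, Biopython 1.88 and matplotlib 3.10.9 were used.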

Additional observations from a re-analysis of the deposited data

How the results depend on the processing

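No direction changed under any alternative run. Of 96 values under alternatives, 75 were counts or shares within 1.5 times, or ratios within the counting interval, of those reported, or equal distances, and the other 21 are given here. The ratio of the chromosome 5 cluster was 12.1 with alignments weighted by their number of places and 10.8 without repeated stretches. In both, thinly covered sequence was kept in full. In settings added after the data were seen, it was 89.3 without alignments in no distinctive stretch and 90.5 in 3-block patterns only. Those stretches and patterns reached their minimum mainly through 2C::tomato+ depth. The ratio of the chromosome 4 cluster was 1.40 with each start position counted 1 time, 1.21 weighted and 1.35 without the locus with most alignments. In the added settings it was 1.10 and 2.18. Joining over 2 kb gave 46 loci on chromosome 5 and 11 on chromosome 4 at least 4-fold higher, and the same counts at 2-fold. Windows of 50 kb gave 33 and 5 at 4-fold, and 6 on chromosome 4 at 2-fold. Silent stretches of at least 5 kb numbered 88 on chromosome 5 and 70 on chromosome 4, and those of at least 20 kb 16 and 17, with 27.8% of the chromosome 5 cluster and 36.9% of the chromosome 4 cluster. With blocks of a single alignment ignored, the silent shares were 68.7% and 76.8%, and with at least 50 alignments 39 windows of chromosome 5 were at least 4-fold higher. These follow from the smaller joins, wider windows and other minimums; for the ratios the cause was not tested. The commonest distances did not change. No paired analysis was possible because there was a single library of each kind, and for the same reason no replicate could be left out. Low depth limits the 2C::tomato- values: the 3-block patterns rest on 5 or 6 alignments each on chromosome 5, and 6 of the 8 on chromosome 4 rest on 2 or 3.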
